A study of Homo sapiens with 9 samples.

Results

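This account concerns 22Rv1 cells in which SSX2 was knocked down (KD), set against untransfected wildtype 22Rv1 cells (WT). 22Rv1 is an established line of human prostate carcinoma that expresses the androgen receptor. The comparison took the 3 KD and 3 WT arrays, 6 of the 9 arrays in the series, and covered all 67528 transcript clusters of the Affymetrix Human Transcriptome Array 2.0. The other 3 arrays were of cells that carried a scramble shRNA (SCR), and they served to find the transcripts whose change against WT differed from that against SCR. KD cells received an SSX2 shRNA plasmid and SCR cells a scramble shRNA plasmid, both by lipofectamine, and selection was kept up with neomycin at 1 mg/ml. WT cells were not transfected, and the sources used here do not say whether their medium held neomycin. KD therefore differed from WT in the shRNA, in transfection and possibly in selection, and these cannot be told apart in this pair of groups. The sources name the arrays of a group technical replicates, so that every p-value below measures only the spread between such replicates. Total RNA had a mean RIN of 2.50, which is low.

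SSX2 is a cancer-testis antigen, a protein that is normally made in the testis and appears again in some tumours. It has no known DNA-binding domain and acts in the nucleus as a repressor of transcription. In prostate cells, the androgen receptor with its partner FOXA1 keeps up the luminal programme, which includes the secreted kallikreins. Cells that adhere and spread on a matrix engage integrins at focal adhesions, and the same mechanical state lets the coactivators YAP and TAZ enter the nucleus and switch on their targets with TEAD factors.

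Levels are log2 intensities, and differences are KD minus WT on that scale. The threshold was a p below 0.05 in limma after Bonferroni adjustment. Array medians lay between 5.41 and 5.44 in KD and between 5.48 and 5.50 in WT. The correlation of arrays over all transcripts was at least 0.996 within KD and within WT, and 0.957 to 0.961 between the groups. Sets of background probes had mean levels between 1.93 and 12.1, with array medians of 3.60 to 3.81, so a low level holds an unknown share of background and a change that ends there is a lower bound. In KD, 2786 transcripts were higher than in WT, which is 4.13% of those tested, and 3031 were lower, which is 4.49%. The KD and WT arrays of these transcripts overlapped in 0 cases, which the threshold nearly ensures, so this is no separate support. The smallest change that passed was 0.48. Over genes, each read by its brightest transcript with 1 symbol, 7.83% were higher and 7.45% lower in KD, and these shares are the background for the gene lists below. The lists were chosen with earlier results of these data known, so their counts describe the data and test nothing.

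The targeted gene was strongly reduced. One transcript shared by SSX2 and its identical copy SSX2B stood at 5.19, 5.06 and 5.14 in the KD arrays, against 11.89, 11.89 and 11.98 in the WT arrays. The arrays of the groups lay far apart. SSX2/SSX2B fell by 6.79 (SE 0.051, adjusted p = 7.74e-12) on this transcript and by 6.63 (SE 0.059, adjusted p = 4.42e-11) on the other that carries the pair of symbols. The SSX genes are near-identical in sequence, so their probes may share signal. SSX3 averaged 4.67 ± 0.072 in KD and 9.04 ± 0.095 in WT (SD, n = 3 each), and SSX5 averaged 4.81 ± 0.29 in KD and 6.98 ± 0.036 in WT. Of 8 measured genes among the SSX family and its binding partners, 0 rose and 7 fell in KD, with a median of -1.46 against -0.06 over all genes.

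The 10 largest rises in KD were of 7 protein-coding genes, 2 pseudogenes and 1 long noncoding RNA. ANXA2, which links membranes to the actin skeleton, gave 12.21, 12.23 and 12.20 in KD, against 6.03, 5.87 and 5.93 in WT. The pseudogene ANXA2P2 shares sequence with ANXA2 and rose by a similar amount, 6.43 (SE 0.16). All KD arrays lay more than 6 units above all WT arrays for ANXA2, and the change was 6.27 (SE 0.053, adjusted p = 2.44e-11). ANXA1, an annexin that dampens inflammation, reached 9.99, 9.84 and 9.83 in KD, against 3.84, 3.82 and 3.82 in WT. MYOF, a ferlin that repairs membranes, read 11.16, 11.09 and 11.10 in KD and 5.15, 5.11 and 5.09 in WT. Neither gene had overlapping arrays, as the choice of these genes required. The KD levels of TM4SF1, a tetraspanin-like surface protein, were 11.51, 11.26 and 11.21, and its WT levels were 5.39, 5.19 and 5.17. EDIL3, a secreted integrin ligand, rose by 5.34 (SE 0.081), and UCHL1, a deubiquitinase abundant in neurons, by 5.05 (SE 0.051). The long noncoding RNA LINC00707 had the largest rise of any transcript with 1 symbol, 6.56 (SE 0.090). ANKRD1, a target of YAP, and RPL31P11, a ribosomal protein pseudogene, completed the 10 largest rises with 6.08 and 6.03.

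SLITRK6, EPHA3, PTPRB and KIT, all proteins of the cell surface, had the largest falls in KD among named genes other than SSX2. SLITRK6, a membrane protein that shapes neurites, gave 3.03, 2.71 and 3.03 in KD, against 9.79, 9.81 and 9.76 in WT. Its change was -6.86 (SE 0.084, adjusted p = 8.38e-10). EPHA3, an ephrin receptor kinase, stood at 4.06, 4.26 and 3.92 in KD and at 10.68, 10.72 and 10.73 in WT. The KD levels of SLITRK6 were below the medians of the background sets, so its change is a lower bound, and those of EPHA3 were above these medians. PTPRB, a receptor phosphatase, fell by 5.65 (SE 0.047), and KIT, the receptor of stem cell factor, by 5.46 (SE 0.067). SCG3, a granule protein of secretory cells, read 3.53, 3.54 and 3.43 in KD, against 8.76, 8.78 and 8.69 in WT, with KD levels below the background medians, so that its fall is a lower bound too. COLEC12, a scavenger receptor, fell by 5.04 (SE 0.055). FOLH1B, a near copy of the gene for prostate-specific membrane antigen, fell by 5.40 (SE 0.058), and the transcript shared by FOLH1/FOLH1B fell by 5.34 (SE 0.049). POTEF and POTEE, paralogs whose probes may share signal, fell by 5.18 and 5.16, and LOC650226 fell by 4.93.

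**Figure D1:**
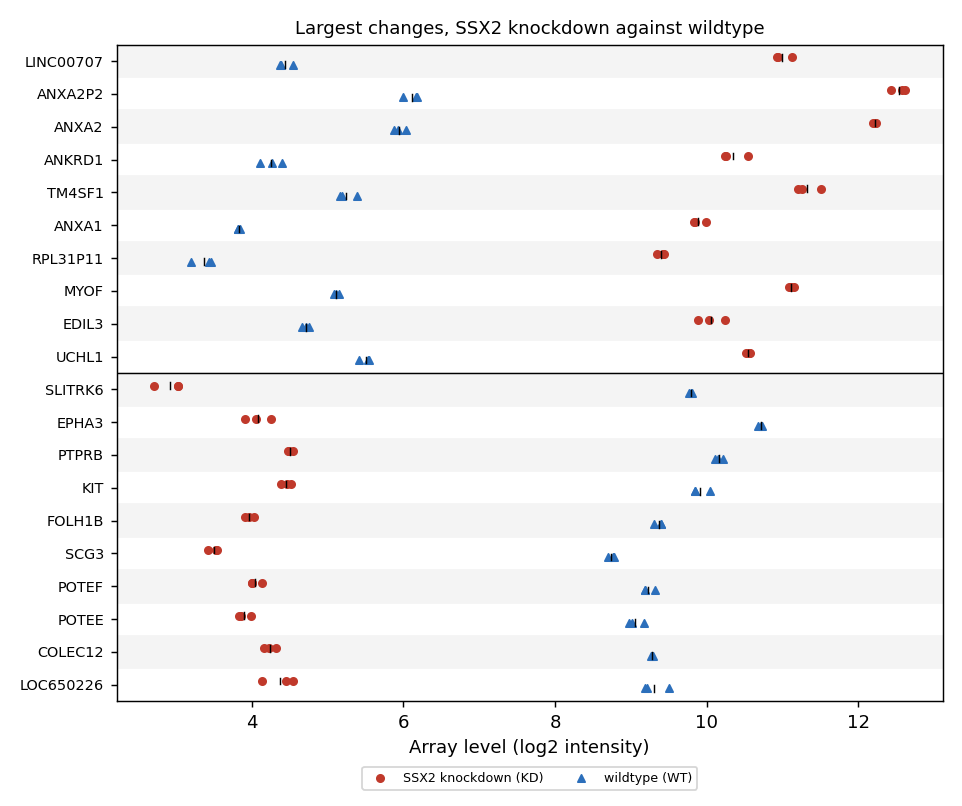
Array levels (log2 intensity, horizontal axis) of the 10 genes with the largest rises (above the line) and the 10 with the largest falls (below it) in KD against WT, with 3 KD arrays (red circles) and 3 WT arrays (blue triangles) for each gene and a black tick at each mean. Genes were chosen among those whose groups do not overlap. SLITRK6 has the lowest KD levels of those shown, between 2.71 and 3.03.

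Genes of the androgen receptor programme fell in KD. Among 23 measured genes there were 15 falls and 2 rises, 6 missed the threshold, and the median change was -1.40. KLK4, a kallikrein protease, gave 6.08, 6.40 and 6.43 in KD, against 9.45, 9.41 and 9.44 in WT. SPDEF, an Ets factor of luminal cells, averaged 7.09 ± 0.11 in KD and 10.06 ± 0.079 in WT. The groups were apart by several units for both, with changes of -3.13 (SE 0.091, adjusted p = 2.38e-06) and -2.98 (SE 0.067, adjusted p = 2.44e-07). KLK2 fell by 2.87, the homeobox factor HOXB13 by 2.55 and FOXA1, which opens chromatin for the receptor, by 2.24. KLK3, which encodes prostate-specific antigen, averaged 6.29 ± 0.047 in KD and 7.26 ± 0.089 in WT, a fall of 0.97 (adjusted p = 0.00192). Against the direction of the list, the efflux pump ABCC4 rose by 2.37 (SE 0.049) and the vesicle regulator RAB3B by 1.74 (SE 0.049). FOXA1 and KLK3 were chosen after their values were seen.

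Genes typical of prostate lines that lack the androgen receptor rose in KD. Of 30 measured, 26 rose and 0 fell, with a median of 2.52. At an unadjusted p under 0.05 in limma, 29 were higher and 0 lower, beside 24.3% of all genes higher and 34.7% lower at that p. This list was chosen with earlier results of these data known, so its counts are a description and not a test. AXL, NT5E, CCN1 and CCN2 also stand on the list of YAP and TAZ targets below, so the lists are not separate evidence. VIM, the intermediate filament vimentin, gave 9.93, 10.27 and 10.25 in KD, against 6.05, 5.99 and 5.98 in WT. CAV1, the coat protein of caveolae, averaged 9.02 ± 0.083 in KD and 5.24 ± 0.11 in WT. MET, the receptor of hepatocyte growth factor, rose by 3.41 (SE 0.048), and TGFBR2 by 3.89 (SE 0.066). Of prostate luminal markers, 5 of 8 measured fell and 0 rose. KRT8, KRT18 and EPCAM, keratins and an adhesion protein of luminal epithelium, did not pass. KRT8 averaged 11.17 ± 0.041 in KD and 11.27 ± 0.019 in WT, with a 95% interval of the difference from -0.20 to -0.01. EPCAM averaged 8.61 ± 0.019 in KD and 8.54 ± 0.026 in WT, with an interval from -0.04 to 0.17. Of the other cell types that a culture could hold, 2 of 6 prostate basal markers rose and 0 fell, 0 of 10 fibroblast and smooth muscle markers rose and 1 fell, 0 of 7 endothelial markers passed (with no adjustment, limma gave p below 0.05 for 1 that was higher and 1 that was lower) and 1 of 9 leukocyte markers rose. The leukocyte marker was CD68, a lysosomal protein that many cells make, at 9.09 ± 0.060 in KD and 6.94 ± 0.13 in WT. On the log2 scale, the summed level of the fibroblast and smooth muscle list was 52.2 to 52.8 in KD and 54.4 to 55.1 in WT, and that of the leukocyte list was 46.3 to 46.8 in KD and 44.1 to 44.8 in WT. The leukocyte sum differed through CD68, and the other 8 markers had changes between -0.13 and 0.15. The summed level of the basal list was 41.6 to 42.0 in KD and 38.2 to 38.7 in WT. It differed through DST, a linker of hemidesmosomes, and ITGB4, an integrin of the same structure, which rose by 2.55 and 0.72, while the defining basal markers KRT5, KRT14, KRT15 and NGFR had changes of -0.01, 0.02, 0.10 and -0.08. The summed level of the endothelial list was 36.9 to 37.4 in KD and 36.4 to 37.6 in WT. The part of these cell types in the results was not tested.

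Most targets of YAP and TAZ rose in KD. Among 24 measured genes there were 21 rises and 1 fall, 2 missed the threshold, and the median change was 1.72. ANKRD1, a nuclear ankyrin-repeat protein, gave 10.54, 10.24 and 10.25 in KD, against 4.27, 4.11 and 4.41 in WT. CCN1, a matricellular protein that binds integrins, read 10.69, 10.45 and 10.43 in KD and 6.83, 6.75 and 6.73 in WT. CCN2, its close relative, read 9.73, 9.59 and 9.40 in KD and 8.32, 8.16 and 8.29 in WT. The groups did not overlap for any of these, and CCN2 rose the least of them, by 1.31 (SE 0.084, adjusted p = 0.00347). AXL, a receptor kinase that is both a target of YAP and a marker of mesenchymal cells, rose by 4.66 (SE 0.062). The exception was IGFBP3, a carrier of insulin-like growth factors, which averaged 7.71 ± 0.13 in KD and 10.11 ± 0.010 in WT and fell by 2.39 (SE 0.064).

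Promoters of CCN2, ANKRD1 and TM4SF1 are shown because these genes rose and their windows hold GGAATG, the letters that TEAD factors are known to bind. The windows are RefSeq sequences of GRCh38.p14 and run from 250 bases before to 50 bases after the start of the gene, 5′ to 3′ on the strand of the gene, with each match on either strand in capitals. CCN2 lies at chr6:131951323-131951622 on the minus strand, ANKRD1 at chr10:90921038-90921337 on the minus strand and TM4SF1 at chr3:149377600-149377899 on the minus strand.
CCN2: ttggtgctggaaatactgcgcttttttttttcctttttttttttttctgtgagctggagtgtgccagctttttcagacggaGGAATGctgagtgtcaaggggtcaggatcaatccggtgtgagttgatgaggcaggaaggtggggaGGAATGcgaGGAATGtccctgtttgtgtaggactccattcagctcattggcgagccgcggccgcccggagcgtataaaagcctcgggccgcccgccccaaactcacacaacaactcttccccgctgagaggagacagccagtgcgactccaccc
ANKRD1: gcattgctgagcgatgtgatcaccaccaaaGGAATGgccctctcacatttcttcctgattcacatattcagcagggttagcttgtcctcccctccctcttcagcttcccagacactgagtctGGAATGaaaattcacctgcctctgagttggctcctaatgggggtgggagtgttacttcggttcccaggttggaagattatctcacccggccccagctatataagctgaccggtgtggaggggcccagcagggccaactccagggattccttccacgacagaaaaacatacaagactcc
TM4SF1: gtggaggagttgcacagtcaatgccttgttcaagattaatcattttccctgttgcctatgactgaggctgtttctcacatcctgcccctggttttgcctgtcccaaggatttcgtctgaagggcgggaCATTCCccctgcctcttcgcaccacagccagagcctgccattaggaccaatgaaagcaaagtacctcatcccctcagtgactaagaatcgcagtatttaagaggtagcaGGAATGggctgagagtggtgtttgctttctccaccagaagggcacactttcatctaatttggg
CCN2 holds 3 matches, 169, 104 and 95 bases before the start. ANKRD1 holds 2 matches, 220 and 128 bases before the start, and TM4SF1 holds 2, at 122 bases on the opposite strand and at 13 bases. The genes shown were chosen after their values were seen. Of the 24 YAP and TAZ targets, 19 had a promoter in the table and 8 of these held the motif, or 42.1%, against 14% of all 27305 promoters. Of the 21 targets that rose, 16 had a promoter and 6 of these held the motif, or 37.5%. The list is one of known targets, so its share of motifs could not test the rises. Among all measured genes with a promoter, the motif stood in 11.4% of those that were higher in KD, in 11.2% of those that were lower and in 11.9% of all. The AP-1 motif TGANTCA, sought on both strands, stood in 5.2% of the higher, 4.91% of the lower and 6.13% of all measured genes. CACCTG, which ZEB and SNAI factors bind, stood in 16.5% of the higher, 22.1% of the lower and 19.9% of all, and the antioxidant response core TGACNNNGC in 15.1%, 15.2% and 14.6%. The 4 motifs were searched alike, and TGANTCA can overlap TGACNNNGC. Among all promoters in the table, TGANTCA stood in 7.76%, CACCTG in 20.6% and TGACNNNGC in 13.6%. These shares are descriptions of letters in short windows.

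Of 50 measured integrins and proteins of the focal adhesion plaque, 20 rose, or 40% beside 7.83% of all genes, 4 fell and 26 missed the threshold. ITGA6, the laminin-binding integrin alpha 6, gave 8.78, 8.73 and 8.73 in KD, against 5.16, 5.11 and 5.00 in WT. ITGA3 rose by 2.75, the adaptor PXN by 1.98 and the actin linker VCL by 1.38. In the other direction, PARVA, a plaque protein that binds actin, averaged 7.43 ± 0.076 in KD and 9.25 ± 0.027 in WT, and the kinase PTK2B fell by 1.74 (SE 0.060). Of 41 laminins, collagens and matricellular proteins, 10 rose and 2 fell, and the median was 0.06. THBS1, thrombospondin, read 10.53, 10.63 and 10.61 in KD and 6.72, 6.57 and 6.69 in WT. VCAN, a proteoglycan of loose matrix, fell by 1.51 (SE 0.046), and the basement membrane collagen COL4A5 by 1.22 (SE 0.054).

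Epithelial and mesenchymal genes each moved both ways. Of 46 epithelial genes, 7 rose and 14 fell, and of 38 mesenchymal genes, 7 rose and 6 fell. GRHL2, a factor that keeps up epithelial identity, gave 5.28, 5.27 and 5.31 in KD, against 9.10, 9.11 and 9.04 in WT. ESRP1, a splicing factor of epithelia, averaged 6.04 ± 0.23 in KD and 9.31 ± 0.026 in WT. The tight junction protein CLDN1 rose instead, by 3.64 (SE 0.14), as did the desmosomal cadherin DSC2, by 2.86 (SE 0.054). On the mesenchymal list, AXL rose by 4.66, VIM by 4.15 and the transcription factor ZEB1 by 2.46. The actin-binding protein CALD1 fell by 2.01 and the basic helix-loop-helix factor TCF4 fell by 1.71. The cadherins CDH1, of epithelia, and CDH2, of mesenchymal cells, both fell, by 1.07 and 1.01.

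Among 22 measured genes of cholesterol synthesis and uptake there were 13 falls and 1 rise, and 8 missed the threshold, with a median of -0.89. MSMO1, which removes methyl groups from sterols, gave 8.45, 8.54 and 8.54 in KD, against 10.09, 10.22 and 10.13 in WT. STARD4, a carrier of cholesterol between membranes, read 7.51, 7.69 and 7.67 in KD and 9.26, 9.47 and 9.30 in WT. The groups did not overlap for either, and the changes were -1.64 (SE 0.053, adjusted p = 7.05e-06) and -1.72 (SE 0.071, adjusted p = 6.18e-05). LSS, which closes the sterol rings, fell by 1.10 (SE 0.078) and the demethylase CYP51A1 by 0.89 (SE 0.050). SREBF2, the factor that drives these genes, averaged 8.25 ± 0.055 in KD and 8.87 ± 0.056 in WT, a fall of 0.62 (adjusted p = 0.0303). INSIG2, which holds that factor back in the endoplasmic reticulum, rose by 0.76 (SE 0.063, adjusted p = 0.0363). INSIG1, of the same family, fell by 1.52 (SE 0.080, adjusted p = 0.000639). The count of falls was 7 with the KD and WT arrays alone in the fit, and between 7 and 10 with any 1 array left out. It was 7 without KD replicate 3, WT replicate 1 or WT replicate 2, and 8 without any 1 SCR replicate. Against SCR, LSS and SREBF2 changed by -0.91 and -0.58 and missed the threshold (adjusted p = 0.0502 and 0.0549 in limma), while MSMO1, STARD4 and CYP51A1 passed.

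**Figure D2:**
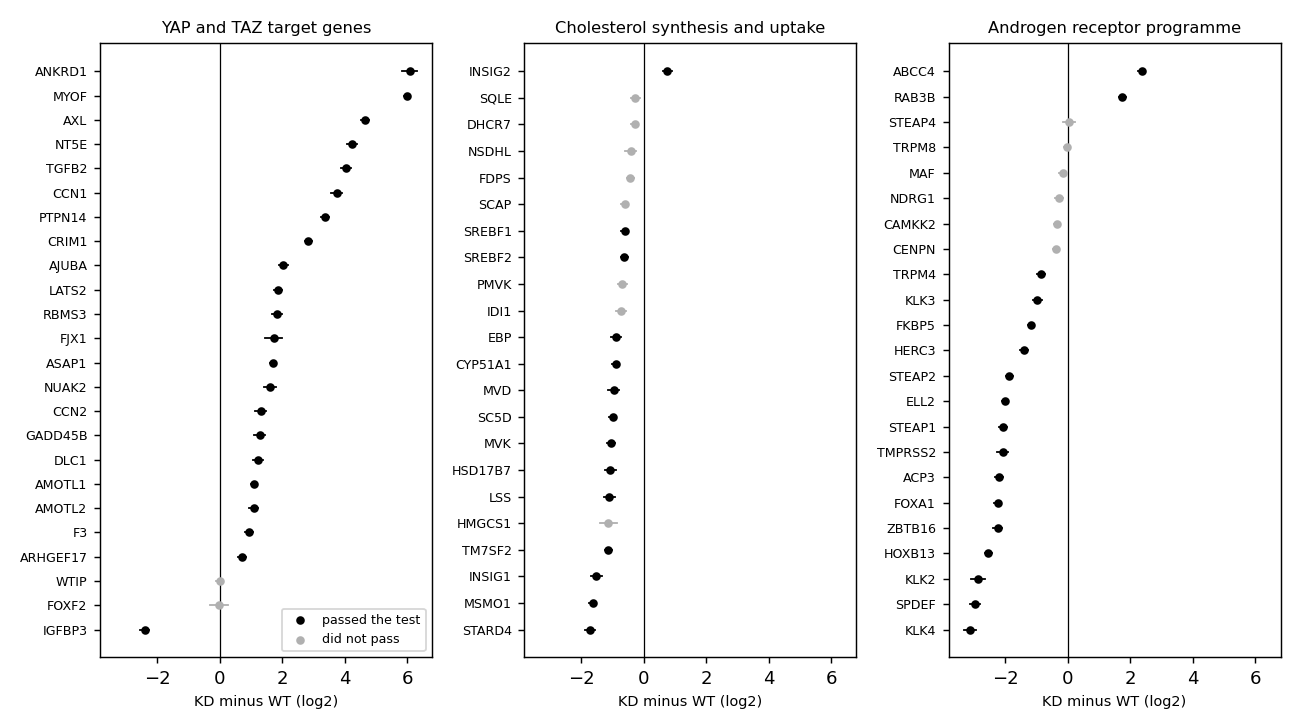
Change in KD against WT (log2, horizontal axis) of every measured gene in 3 lists, with points for the estimates and lines for 95% intervals from limma over 3 arrays a group; black genes passed the test and grey ones did not. The YAP and TAZ targets lie right of 0 except for IGFBP3 and 2 genes near 0, and most genes of the other lists lie left of 0.

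Of 25 measured NRF2 targets, which detoxify and supply reducing power, 14 rose, 1 fell and 10 missed the threshold, with a median of 0.84. NQO1, a quinone reductase, gave 11.77, 11.72 and 11.55 in KD, against 7.39, 7.25 and 7.30 in WT. ME1, the malic enzyme, averaged 10.38 ± 0.0069 in KD and 6.52 ± 0.15 in WT. The exception was ABCC2, an export pump, which fell by 1.84 (SE 0.061).

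Of 38 NF-kB targets, cytokines and chemokines, 15 rose, 1 fell and 22 missed the threshold. IL18, a cytokine of epithelia, gave 8.02, 7.84 and 7.91 in KD, against 3.89, 3.82 and 3.60 in WT. ICAM1, an adhesion protein for leukocytes, rose by 3.34 (SE 0.073), and the chemokine CX3CL1 fell by 1.04 (SE 0.067). Of 20 genes of HLA class I presentation, 9 rose, 1 fell and 10 missed the threshold. HLA-B averaged 9.12 ± 0.16 in KD and 6.88 ± 0.062 in WT, HLA-C rose by 1.63 (SE 0.059), and the peptidase ERAP2 rose by 1.85 (SE 0.049). The HLA genes are read by near-identical transcripts on several haplotype sequences, so their separate levels are uncertain. The light chain B2M averaged 10.33 ± 0.041 in KD and 10.25 ± 0.021 in WT and did not pass, with an interval from -0.03 to 0.18. Of 42 interferon response genes, 13 were higher and 3 lower, which is 31% and 7.14% beside the 7.83% and 7.45% of all genes. IFI6, which blocks viral replication, rose by 2.87 (SE 0.059), whereas RSAD2, another antiviral protein, fell by 1.37 (SE 0.061).

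Of 52 genes of TGF-beta and BMP signalling, 8 rose, 11 fell and 33 missed the threshold. The TGF-beta ligand TGFB2 gave 8.77, 8.63 and 8.55 in KD, against 4.59, 4.61 and 4.60 in WT. The receptors TGFBR2 and TGFBR1 rose by 3.89 and 1.66, and SMAD3, which carries their signal, by 2.40 (SE 0.051). The ligand BMP2 averaged 6.25 ± 0.26 in KD and 8.90 ± 0.043 in WT. SMAD9, a transducer of BMP signals, fell by 1.99, and the targets ID1, ID2, ID3 and ID4 fell by 1.18, 2.29, 2.22 and 3.08. PMEPA1, a feedback inhibitor of TGF-beta signalling that androgens also induce, fell by 2.85 (SE 0.044).

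Receptor tyrosine kinases changed in both directions. Of 55 measured, 8 rose and 9 fell. AXL and MET led the rises, and EPHA3, KIT and EPHA7 the falls. Of 49 semaphorins, plexins, neuropilins, slits and netrins, which guide axons and vessels, 8 rose and 8 fell. SEMA6A, a transmembrane semaphorin, gave 5.40, 5.49 and 5.40 in KD, against 9.95, 9.97 and 9.88 in WT. NTN4, a netrin of basement membranes, averaged 8.82 ± 0.073 in KD and 5.36 ± 0.023 in WT, and SEMA3C rose by 2.41 (SE 0.048). Of 24 glutamate receptors, 0 rose and 6 fell, and at an unadjusted p under 0.05 in limma 0 were higher and 16 lower, beside 24.3% and 34.7% of all genes at that p. GRIN3A, a subunit of NMDA receptors, fell by 4.84 (SE 0.055), and the AMPA receptor subunit GRIA2 by 1.39 (SE 0.051).

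Of 29 measured genes of neuroendocrine and neuronal cells, 3 rose, 11 fell and 15 missed the threshold. SNAP25, which fuses vesicles with the membrane, averaged 6.44 ± 0.046 in KD and 8.45 ± 0.038 in WT. SYP, a vesicle protein, fell by 1.39 (SE 0.072), and CHGB, a granule protein, by 1.18 (SE 0.061). UCHL1 went the other way, and the neurofilament NEFL rose by 1.31 (SE 0.062).

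Of 41 genes of DNA replication and mitosis, 6 rose and 2 fell. TOP2A, a topoisomerase of dividing cells, rose by 0.95 (SE 0.052), and the replication clamp PCNA fell by 0.76 (SE 0.047). Of 29 genes of the integrated stress response and unfolded protein response, 1 rose and 7 fell, with SLC7A5, an amino acid carrier, at 11.31 ± 0.16 in KD and 13.05 ± 0.017 in WT. Of 24 targets of p53, 5 rose and 5 fell, with PLK2 up by 1.95 and TP53INP1 down by 3.07 (SE 0.13). Glycolysis and hypoxia genes were also even, with 7 of 34 higher and 7 lower. The glucose carrier SLC2A1 rose by 1.56 (SE 0.050) and the enzyme PFKP by 2.53 (SE 0.067), while CA12 and ALDOC fell by 1.33 and 1.21.

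Of 50 Wnt genes, 6 rose and 2 fell, which is 12% and 4% beside the 7.83% and 7.45% of all genes. DKK1, a secreted Wnt antagonist, gave 9.55, 9.48 and 9.45 in KD, against 5.39, 5.50 and 5.27 in WT. LEF1, a nuclear partner of beta-catenin, fell by 2.32 (SE 0.041). Of 28 Notch genes, 2 rose and 4 fell, which is 7.14% and 14.3% beside the same shares of all genes. The rises were of NUMB, an inhibitor of Notch, by 1.05 (SE 0.046) and MAML2 by 0.79 (SE 0.050). The falls were of the target HES1 by 1.88 (SE 0.077), NRARP by 1.17, MAML3 by 1.10 and RBPJ by 0.53. Of 23 retinoid genes, 2 rose and 2 fell, which is 8.7% each way and near the shares of all genes. The enzymes ALDH1A3 and RDH10 rose by 2.07 and 1.94, and the enzyme ALDH1A1 and the receptor RARB fell by 1.00 and 0.79. Among 15 genes of the Y chromosome, 2 were higher and 1 lower.

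**Figure D3:**
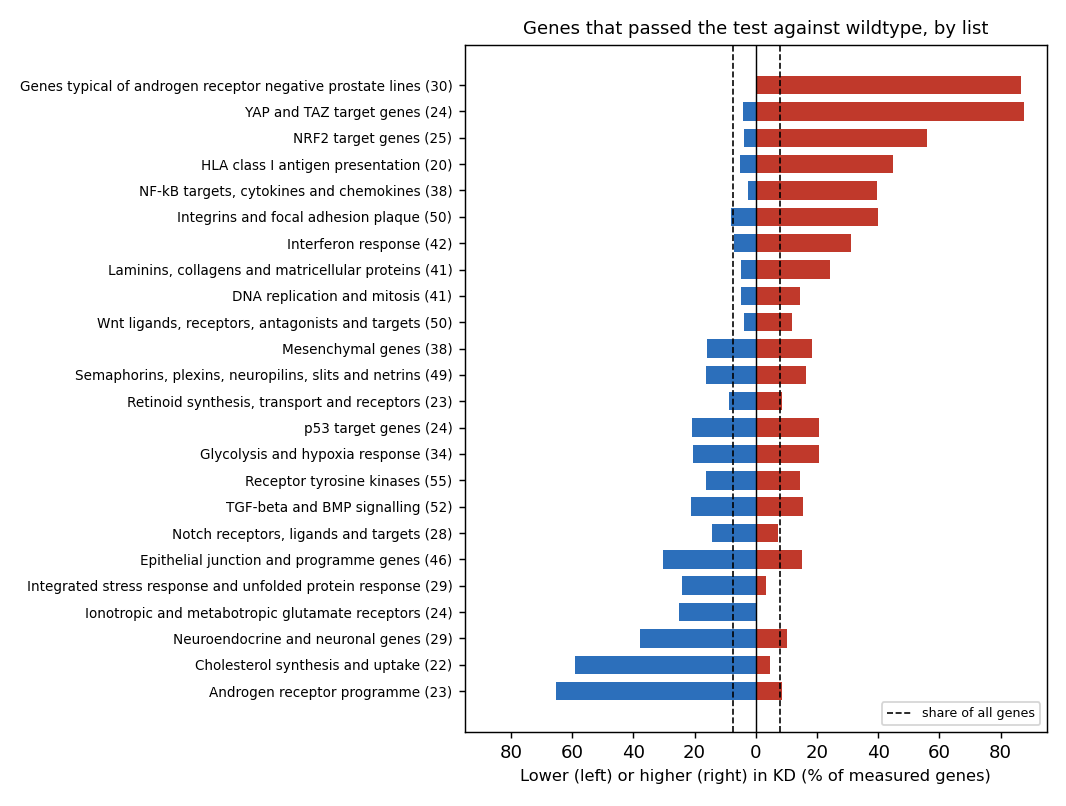
Share of the measured genes of each list (number in brackets, lists of at least 20 genes) that passed the test against WT, with genes higher in KD to the right (red) and genes lower in KD to the left (blue), in percent. Dashed lines mark the shares over all genes, 7.83% higher and 7.45% lower.

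A few microRNA genes changed in KD. The mature sequences of 4 of them are shown, since their seeds (bases 2 to 8, in capitals) decide which messages a microRNA pairs with. They are from RefSeq with GRCh38.p14, 5′ to 3′, and were chosen after their values were seen. MIR21 is on chromosome 17, MIR29A on chromosome 7, MIR221 on chromosome X and MIR32 on chromosome 9.
hsa-miR-21-5p: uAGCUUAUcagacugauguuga
hsa-miR-29a-3p: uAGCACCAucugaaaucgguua
hsa-miR-221-3p: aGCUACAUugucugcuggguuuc
hsa-miR-32-5p: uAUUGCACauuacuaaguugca
No seed is shared by any pair of these 4. The array reads the primary or precursor transcript and not the mature microRNA. MIR21, which is raised in many carcinomas, gave 6.75, 7.01 and 7.27 in KD, against 4.66, 4.82 and 4.72 in WT. MIR29A, which targets messages of collagens, read 5.42, 5.33 and 5.09 in KD and 3.18, 3.07 and 3.07 in WT. MIR221, which targets KIT among others, read 5.02, 4.67 and 4.92 in KD and 3.62, 3.55 and 3.43 in WT. The groups did not overlap for any of these, and the WT levels of MIR29A and MIR221 were at or below the background medians. MIR32 rose by 1.47 (SE 0.092, adjusted p = 0.00291). Of 1087 transcripts with the symbol of a single microRNA, 10 were higher and 4 lower in KD, beside 4.13% and 4.49% of all transcripts. Among the 4, MIR1299 fell the most, at 9.42 ± 0.13 in KD and 11.51 ± 0.083 in WT.

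The change of KD against WT and its change against SCR use the same KD arrays, so their difference is the level of SCR minus that of WT and the KD mean drops out. This difference passed for 145 transcripts, or 0.215% of all, with SCR above WT in 95 and below WT in 50. Of the 145, 107 carry 1 symbol, for 102 genes, 5 carry several and 33 carry none. Against SCR, 4.08% of all transcripts were higher in KD and 4.68% lower. Of the 145, 33 passed against WT alone, 33 against SCR alone, 76 against both in the same direction and 3 against neither. Opposite calls occurred in 0 transcripts. The count of 145 was 89, 82 and 87 without SCR replicate 1, 2 or 3, and 80, 92 and 95 without WT replicate 1, 2 or 3. Among the 5817 transcripts called against WT, 5708 were not shown to change by another amount against SCR. Over all 5817 calls the median 95% interval of the difference between the changes reached 0.13 to each side of its estimate.

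**Figure D4:**
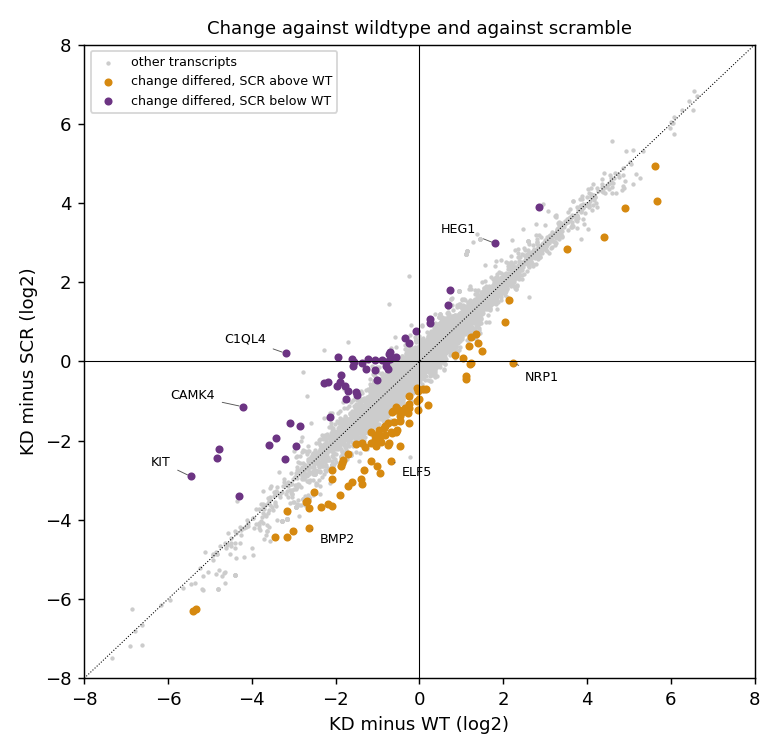
Change of each transcript in KD against WT (horizontal axis, log2) and against SCR (vertical axis, log2), which share the KD arrays, with the 145 transcripts whose changes differed in orange (SCR above WT, 95) or purple (SCR below WT, 50), all others in grey and a dotted line where both changes are equal. NRP1 and C1QL4 lie close to 0 on the vertical axis and away from 0 on the horizontal one.

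In 10 transcripts the rise in KD passed against WT alone, and SCR stood above WT as well. NRP1, a coreceptor for semaphorins and vascular growth factors, gave 9.13, 9.21 and 9.18 in KD, 9.20, 9.19 and 9.22 in SCR, against 6.97, 6.93 and 6.90 in WT. KD and SCR overlapped, and both lay above WT. NRP1 changed by 2.24 against WT (SE 0.045, adjusted p = 7.57e-08) and by -0.03 against SCR, with a 95% interval from -0.13 to 0.07. The keratin KRT7 averaged 10.23 ± 0.044 in KD, 10.29 ± 0.022 in SCR, against 9.01 ± 0.090 in WT. KRT19, another keratin, read 9.51, 9.61 and 9.56 in KD, 10.02, 10.04 and 9.94 in SCR, against 8.55, 8.42 and 8.40 in WT. KRT7 belongs to the list of genes typical of lines without the androgen receptor, and KRT19 to the epithelial list, and each counted there as a rise. IGF1R, the receptor of insulin-like growth factor 1, averaged 9.82 ± 0.010 in KD, 9.66 ± 0.030 in SCR, against 8.96 ± 0.089 in WT.

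In 23 transcripts the fall in KD passed against WT alone, and SCR stood below WT as well. C1QL4, a secreted protein of the C1q family, had the largest difference of all named genes. It read 7.11, 7.05 and 7.11 in KD, 6.75, 6.94 and 6.97 in SCR, against 10.42, 10.38 and 10.06 in WT. The SCR arrays were below the KD arrays, and WT was far above both. C1QL4 fell by 3.19 against WT (SE 0.097) and changed by 0.20 against SCR, with an interval from -0.01 to 0.42. The lysosomal receptor SCARB2 averaged 8.95 ± 0.022 in KD, 9.30 ± 0.063 in SCR, against 10.81 ± 0.074 in WT. EMP1, a membrane protein of epithelia, and MERTK, a kinase of the same family as AXL, fell by 1.58 and 1.07 against WT and changed by -0.12 and 0.04 against SCR. SOX9, a factor of progenitor cells, averaged 7.73 ± 0.076 in KD, 7.92 ± 0.011 in SCR, against 9.01 ± 0.065 in WT. The ectonucleotidase ENTPD2 fell by 2.27 against WT. Against SCR, ENTPD2, SCARB2 and SOX9 changed by -0.54, -0.35 and -0.19, short of the threshold. The 95% intervals of these changes ran from -0.70 to -0.37, from -0.47 to -0.23 and from -0.31 to -0.06.

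A further 17 transcripts were lower in KD than in both, with SCR between KD and WT. KIT gave 4.39, 4.46 and 4.52 in KD, 7.31, 7.42 and 7.35 in SCR, against 9.85, 10.04 and 9.85 in WT. The groups formed separate steps, and the change was -5.46 against WT and -2.90 against SCR. EPHA7, an ephrin receptor, had means of 4.29 ± 0.059 in KD, 6.50 ± 0.032 in SCR, against 9.06 ± 0.062 in WT. CAMK4, a calcium-dependent kinase, averaged 5.14 ± 0.089 in KD, 6.29 ± 0.021 in SCR, against 9.36 ± 0.060 in WT. Its fall against WT, 4.22, was larger than the 1.14 by which KD was below SCR. GRIN3A, the phosphatase PTPRZ1 and the plasma protein gene ALB showed the same order, with changes against WT of -4.84, -3.08 and -3.59 and against SCR of -2.45, -1.55 and -2.12.

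The largest class, 47 transcripts, was lower in KD than in both, with SCR above WT. BMP2 averaged 6.25 ± 0.26 in KD, and read 10.49, 10.42 and 10.50 in SCR, against 8.95, 8.87 and 8.88 in WT. Its change was -2.65 against WT and -4.22 against SCR. CNTFR, a subunit of the receptor of ciliary neurotrophic factor, averaged 7.78 ± 0.12 in KD, 11.43 ± 0.058 in SCR, against 9.87 ± 0.062 in WT. IGF1 stood at 4.28 ± 0.13 in KD, 7.96 ± 0.026 in SCR, against 6.63 ± 0.083 in WT. The retinal dehydrogenase ALDH1A1 fell by 1.00 against WT, while KD was below SCR by 2.63 on the same scale. FOLH1B, STEAP1 and the Hedgehog receptor PTCH1 were of this class too, with changes against WT of -5.40, -2.08 and -0.83 and against SCR of -6.30, -2.74 and -1.86. The neuronal gene BEX1 fell by 1.39 against WT and changed by -2.96 against SCR.

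For 29 transcripts the fall in KD passed against SCR alone, again with SCR above WT. ELF5, an Ets factor of glandular epithelium, gave 4.62, 4.85 and 4.69 in KD, 7.18, 7.22 and 7.31 in SCR, against 5.43, 5.33 and 5.41 in WT. Its change was -0.67 against WT (adjusted p = 0.193) and -2.52 against SCR (adjusted p = 1.24e-06). The class II gene HLA-DQB1 was read by 6 transcripts on different haplotype sequences, which share probes and count as 1 gene. The highest of them averaged 6.37 ± 0.097 in KD, 8.47 ± 0.047 in SCR, against 7.12 ± 0.11 in WT. The synaptic scaffold LRRC7 stood at 3.65 ± 0.019 in KD, 5.78 ± 0.022 in SCR, against 4.11 ± 0.067 in WT. LAMC1, the gamma 1 chain of laminins, averaged 9.78 ± 0.049 in KD, 10.85 ± 0.042 in SCR, against 10.02 ± 0.030 in WT. B2M had the same pattern, with 11.02 ± 0.054 in SCR.

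The 3 transcripts that passed against neither were RGS5, CYP2R1 and SEMA3A. The remaining classes were small. In 9 transcripts KD was higher than both with SCR above WT. The clotting inhibitor TFPI read 9.68, 9.46 and 9.44 in KD, 5.56, 5.72 and 5.72 in SCR, against 4.60, 4.73 and 4.58 in WT. AJUBA, an adaptor of the Hippo pathway that is on the list of YAP targets, averaged 9.46 ± 0.13 in KD, 8.46 ± 0.034 in SCR, against 7.42 ± 0.052 in WT. In 3 transcripts KD was higher than both with SCR below WT, among them HEG1, a receptor of vascular junctions, at 9.28 ± 0.19 in KD, 6.30 ± 0.058 in SCR, against 7.47 ± 0.030 in WT, and TMEFF1, which rose by 0.74 against WT and was 1.79 above SCR. In 4 transcripts the rise in KD passed against SCR alone, with SCR below WT. They were the matrix protein TNC, the AP-1 factor FOSL2, the natriuretic peptide receptor NPR3 and the chaperone DNAJA4. TNC averaged 8.88 ± 0.071 in KD, 7.82 ± 0.026 in SCR, against 8.62 ± 0.061 in WT.

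**Figure D5:**
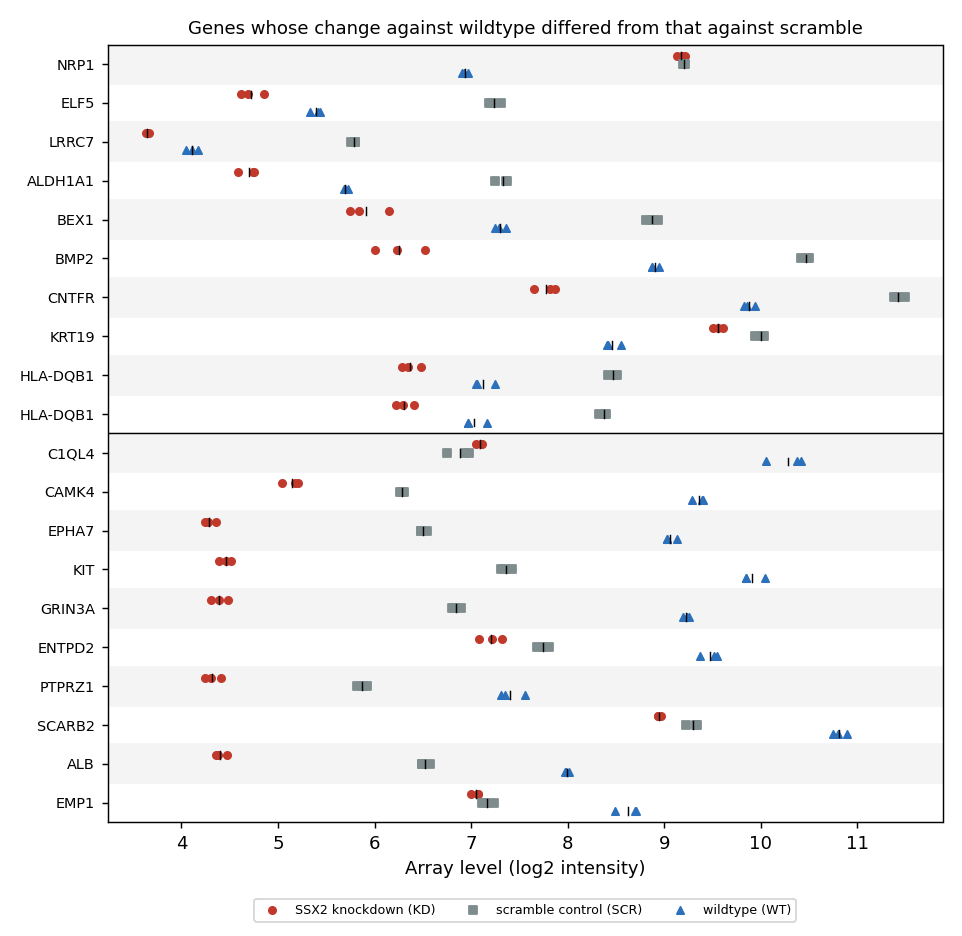
Array levels (log2 intensity, horizontal axis) of the named transcripts with the 10 highest (above the line) and 10 lowest (below it) values of SCR minus WT, with 3 KD arrays (red circles), 3 SCR arrays (grey squares) and 3 WT arrays (blue triangles) for each and a black tick at each mean. HLA-DQB1 appears as 2 of its 6 transcripts. For NRP1 the KD and SCR arrays lie together near 9.2 and WT near 6.9.

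Over all genes, 0.45% had changes that differed. The receptor tyrosine kinases held 4 of 55, namely KIT, EPHA7, MERTK and IGF1R, and the laminin and collagen list held 3 of 41, namely TNC, LAMC1 and VCAN. The epithelial list held KRT19 and ELF5, the neuroendocrine list LRRC7 and BEX1, and the semaphorin list NRP1 and SEMA3A. Single genes were STEAP1 in the androgen receptor programme, KRT7 among genes typical of lines without the receptor, AJUBA among YAP and TAZ targets, B2M in HLA class I presentation, AKR1C2 among NRF2 targets, ALDH1A1 in the retinoid list, GRIN3A among glutamate receptors and BMP2 in TGF-beta and BMP signalling. The other lists held 0. Median changes were 1.66 against SCR and 1.72 against WT for the YAP and TAZ targets, -1.58 and -1.40 for the androgen receptor programme, 2.40 and 2.52 for the genes typical of lines without the androgen receptor and -0.73 and -0.89 for cholesterol synthesis. The pairs share the KD arrays and so are not separate evidence.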

How the data were processed

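Biotin-labelled RNA was hybridised to 9 Affymetrix Human Transcriptome Arrays. Values are log2 intensities as deposited, which the authors obtained by RMA normalization; the submitters' processing notes also name Expression Console and Transcriptome Analysis Console 3.0. No build is named for the array annotation. Of 70523 probe sets, 2995 were no transcript clusters and were left out. Of the transcripts, 23781 carried 1 gene symbol, 1543 several and 42204 none, and 21497 of those with 1 symbol matched RefSeq GRCh38.p14 by gene identifier. For each of 22465 genes, the brightest transcript that carried no other symbol was used. A further 2366 transcripts repeat the values of another and were kept.

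In R 4.3.3, limma 3.58.1 was fitted to all 9 arrays with a mean for each group and eBayes at default settings, and p-values were adjusted by Bonferroni over all transcripts. Intervals are at 95%. The fit was tested on simulated data. Genes named are SSX2, the 10 largest rises and 10 largest falls without overlap of arrays, up to 2 rises and 2 falls per list, and the 10 highest and 10 lowest differences of the changes; others were chosen after their values were seen. The members and gene lists were chosen with earlier results of these data known. Alternatives were Benjamini-Hochberg adjustment, a 2-fold minimum, the methods' ANOVA, median centring, quantile normalization, a filter on dim transcripts, the compared arrays alone, trend and robust moderation, the mean of a gene's transcripts, a replicate block and each array left out. The number of arrays limits the precision.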

Additional observations from a re-analysis of the deposited data

How the results depend on the processing

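Counts of transcripts higher in KD, lower in KD and with changes that differed were 2786, 3031 and 145. They were 10001, 16037 and 1226 with Benjamini-Hochberg adjustment, 1704, 1824 and 68 with at least 2-fold, 182, 177 and 8 with the methods' one-way ANOVA of the compared groups, and 1718, 1737 and 80 with only the arrays of the compared groups. The ANOVA and the last fit have fewer degrees of freedom. With the array number as a replicate block they were 1808, 1876 and 78. The correlations of deviations of KD and WT arrays of the same number were 0.000534, 0.159 and 0.129, so the numbers were not taken to pair arrays. Leaving out 1 array gave 1939 to 2260, 1971 to 2388 and 80 to 115, and the count of lower transcripts was 1971 without WT replicate 1 and 2001 without WT replicate 2. Of the 145, between 80 and 109 passed in these fits, and 80 without WT replicate 1. Under the ANOVA, 4 genes of the androgen receptor programme fell, 7 genes typical of lines without the receptor rose, 6 YAP and TAZ targets rose and 0 cholesterol genes fell. The cholesterol count was 21 by Benjamini-Hochberg, 7 with 2-fold, 7 with only the compared arrays and 7 with the block. With 1 array left out, these lists gave 15 to 15, 23 to 25, 19 to 20 and 7 to 10. Median centring, which gave 3168 higher and 2542 lower, quantile normalization, the filter on dim transcripts and trend with robust moderation left these 7 counts within 1.5 times. Of 62 counts over all lists, 53 moved by more than 1.5 times under the ANOVA, 37 with Benjamini-Hochberg adjustment, 17 with only the compared arrays, 16 with 2-fold, 12 with the block and 6 to 11 with 1 array left out. Of 177 named changes of KD against WT, 0 reversed under these alternatives, 115 missed the threshold under the ANOVA, and 6 to 13 did so with 1 array left out. Probes near background limit how far low levels can be read.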
